A study of Mus musculus with 8 samples.

Results

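Pre-mRNA splicing removes introns from new transcripts. Small nuclear ribonucleoproteins (snRNPs), each an RNA with a shell of proteins, recognise the ends of an intron and join into the spliceosome, and SR proteins, named for their arginine and serine rich tails, bind exons and help to define them. At the 2-cell stage the mouse embryo switches from RNA stored in the oocyte to transcripts of its own, so the splicing machinery it starts with is partly maternal. Described here are 46 protein-coding genes of this machinery among the 37310 genes in the count tables. They were chosen by symbol: those beginning with Sf3a, Sf3b, Snrp, Prpf or Srsf, together with U2af1 and U2af2. The pseudogenes Snrpert and Snrp1c-ps2 were left out, and Snrpn was not analysed here. Several spliceosome proteins carry other symbols and are counted separately below.

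The study compared embryos lacking both Gadd45a and Gadd45b (double knockout, DKO) with wild-type embryos, both on the C57BL/6N strain. GADD45 proteins are induced by stress and act in cell cycle arrest, in DNA repair and in the removal of DNA methylation. The DKO animals came from crosses of mice carrying single knockouts, and the embryos from superovulated, naturally mated females of 3 to 4 weeks that were themselves DKO or wild-type (the sires are not described), so loss of the maternal and of the embryonic gene products was not separated. Each genotype had 4 pools, made of 23 to 35 embryos from 1 litter and collected 20 h after the vaginal plug, with polyA RNA amplified and read on 1 flow cell.

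The libraries held 21329736 to 23919114 counts and 18433 to 20427 detected genes. Gadd45b had 4, 14, 1 and 6 counts in DKO replicates 1 to 4 and 910, 946, 1395 and 808 in wild-type replicates 1 to 4, which matched the labels. Gadd45a had 237, 247, 163 and 201 counts in DKO replicates 1 to 4 and 482, 341, 502 and 468 in wild-type replicates 1 to 4, so reads remained at that locus; which of its exons are deleted is not stated in the labels. The 6 markers of the 2-cell stage were all present. Zscan4d, a telomere regulator, stood at 170 to 302 CPM in DKO and 164 to 277 CPM in wild-type, while Tdpoz4 and Dppa2 had lower DKO levels at an unadjusted p under 0.05, and the DKO and wild-type pools of Tdpoz4 (10.1 to 22.5 and 25.1 to 36.5 CPM) did not overlap. CPM values are counts scaled to the TMM-adjusted library total. Values written with ± and no other word are mean ± SD over the pools of a genotype (n = 4). Of 15 markers of cumulus and granulosa cells, which surround the oocyte, Amh, Inhba, Ptx3 and Foxl2 had 0 counts in all 8 libraries, and the list summed to 101 to 146 CPM in DKO and 118 to 177 CPM in wild-type, mostly from Nr5a2 and Amhr2. Sperm markers summed to 1.11 to 2.37 CPM in DKO and 0.518 to 1.47 CPM in wild-type. Oviduct and blood markers summed to 161 to 260 CPM in DKO and 196 to 355 CPM in wild-type, mostly from Epcam (154 to 252 CPM over all pools). Among them Hba-a1 stood at 51.1 CPM in DKO replicate 4 and 44.0 CPM in wild-type replicate 1, and at 1.24 to 3.04 CPM in the other pools. Ovgp1 was at 57.4 CPM in wild-type replicate 1 and at 3.22 to 16.5 CPM elsewhere. The library of DKO replicate 1 was the most deviant, with a limma-voom quality weight of 0.365 where the others had 0.786 to 2.08. Ratios and role medians of the splicing genes printed below that moved by over 1.5 times without it are given both ways.

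No spliceosome or SR protein gene passed the test for a difference between the genotypes. Of the 46 genes, 44 had enough counts to be tested, and 0 passed an adjusted p of 0.05 in edgeR's quasi-likelihood test, against 0.0267% of the 14970 genes tested (either direction; 0.02% lower and 0.00668% higher in DKO). The smallest adjusted p among them was 0.469. DESeq2 and limma-voom with sample quality weights also called 0 of the 44, against 0.314% and 0.0334% of all genes. Before adjustment, 3 of the 44 had an edgeR p under 0.05 with a lower DKO level (Prpf31, Prpf4 and Prpf4b), against 4.44% of all genes. A higher level at such a p was found for 0, against 5.79% (10.2% in either direction). The log2 ratio of DKO over wild-type (the fitted fold change) ran from −0.52 for Prpf31 to 0.29 for Snrpg. Their 95% intervals lay within 2-fold in either direction for 44 of 44 genes, against 57.9% of all genes tested, and within 1.5-fold for 25, against 21% of all genes. The members are better expressed than most genes, with a median level of 117 CPM where 14415 tested genes of known length had 11.0 CPM. The standard errors of the members had a median of 0.16 on the log2 scale.

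**Figure D1:**
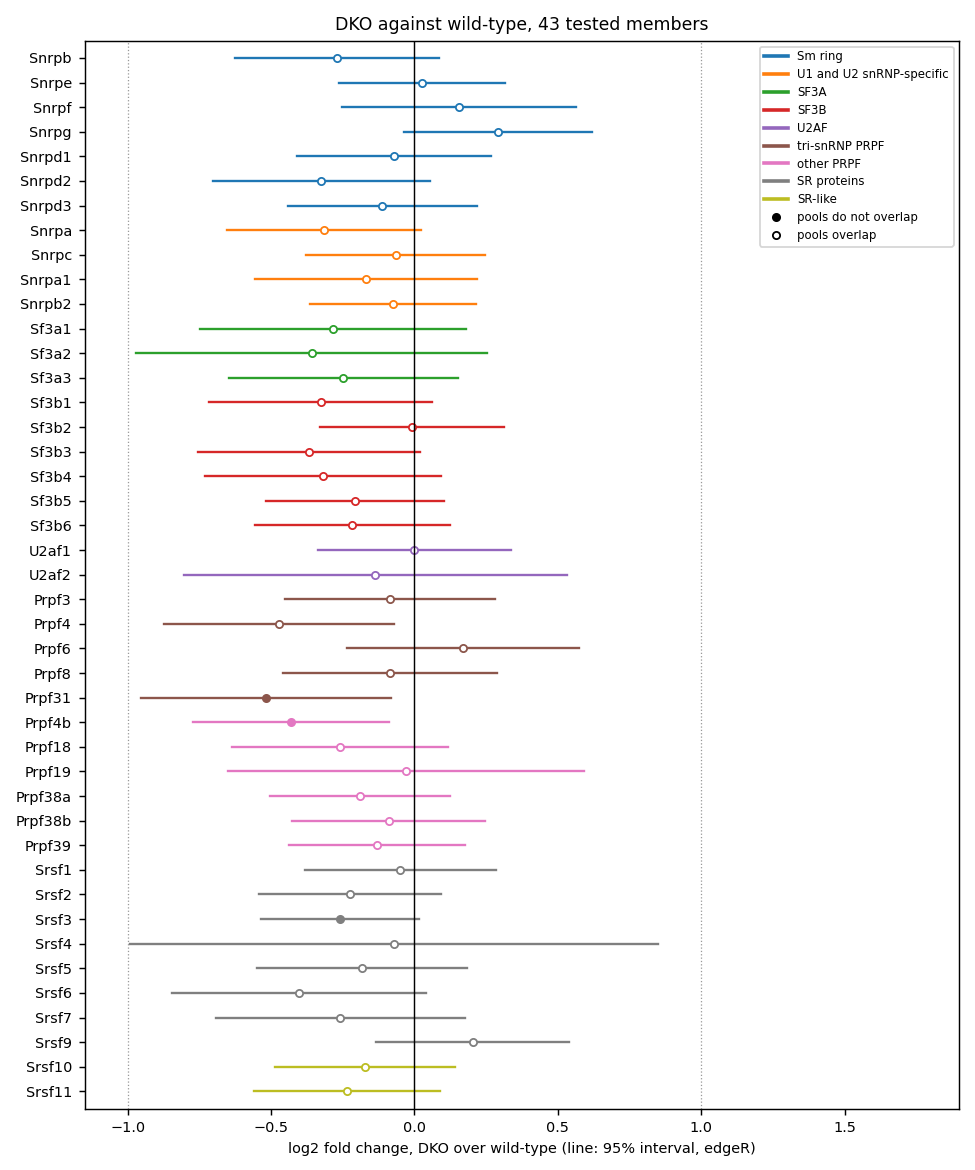
Log2 ratio of DKO over wild-type (x axis) for 43 of the 44 tested genes, coloured by role, with the 95% interval from edgeR as a line; filled points mark genes whose DKO and wild-type pools do not overlap, and dotted lines mark a 2-fold change. The points lie between −0.52 and 0.29, and the intervals of Prpf31, Prpf4 and Prpf4b end below 0.

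The point estimates were mostly below 0. A negative log2 ratio was found for 39 of the 44 genes, U2af1 at practically 0 included, where 48.8% of all genes tested had one. The median was −0.18, and 0.01 over all genes. Between 35 and 39 were negative under the other scalings tried. The share of all genes is not given for those scalings, so these counts cannot be set against it. Without DKO replicate 1 the count was 35 (51.1% of all genes) and the median −0.11, and without wild-type replicate 4 the median was −0.12. In 30 of the 44 genes DKO replicate 1 had the lowest of the 8 levels, against 25.1% of all genes, and in 27 of these 30 another DKO pool reached the wild-type range.

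Summed over the 46 genes, the level was 6467, 8574, 7551 and 8209 CPM in DKO replicates 1 to 4, and 8643, 8396, 7857 and 9905 CPM in wild-type replicates 1 to 4. The genotypes overlapped, DKO replicate 1 had the lowest sum and wild-type replicate 4 the highest. The sum of 12 transcripts that the oocyte supplies, such as Btg4, Omt2b and Obox5, was 15066, 8281, 11217 and 8831 CPM in DKO replicates 1 to 4, and 6882, 6473, 9248 and 4784 CPM in wild-type replicates 1 to 4. There DKO replicate 1 was highest and wild-type replicate 4 lowest. Most of this sum came from the 3 genes named: Btg4 averaged 4083 ± 1411 CPM in DKO and 2354 ± 803 CPM in wild-type, Omt2b 3663 ± 955 CPM in DKO and 2193 ± 480.1 CPM in wild-type, and Obox5 1914 ± 613 CPM in DKO and 1209 ± 444 CPM in wild-type. The oocyte genes Zp1, Zp2, Zp3 and Nlrp5 had log2 ratios of 0.01, −0.00378, 0.00261 and −0.02, and Zp3 was lowest in DKO replicate 1. The 6 markers of the 2-cell stage summed to 1249, 1746, 1803 and 1738 CPM in DKO replicates 1 to 4 and 1981, 1690, 1689 and 2188 CPM in wild-type replicates 1 to 4. That sum was lowest and highest in the same pools as the splicing genes, as were Dppa2 and Dppa4 within it. Zscan4d, Zfp352 and Usp17lc were instead lowest in wild-type replicate 4, at 164, 233 and 52.4 CPM. Of these 6 stage markers, 3 had a negative log2 ratio. Of the 12 oocyte transcripts, 2 had a negative log2 ratio, and 4 had a positive one at an unadjusted p under 0.05. The part of these oocyte and stage markers in the splicing gene levels was not tested. In pools of embryos, fewer cells at a given stage and less RNA per cell cannot be told apart.

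**Figure D2:**
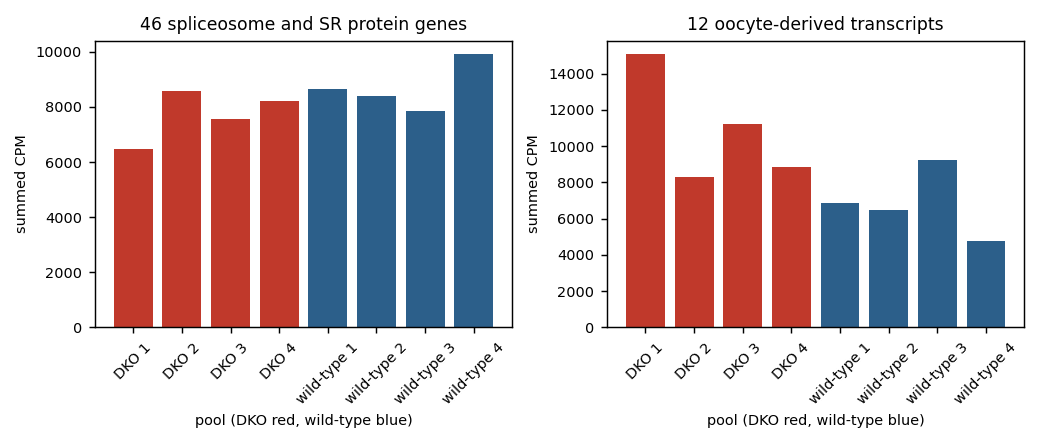
Summed CPM (y axis, from 0) of the 46 spliceosome and SR protein genes on the left and of 12 oocyte-derived transcripts on the right, by pool, with DKO bars red and wild-type bars blue. DKO replicate 1 has the lowest splicing sum (6467 CPM) and the highest oocyte sum (15066 CPM), and wild-type replicate 4 has 9905 and 4784 CPM.

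Sm proteins form a ring of 7 around the RNA of each major spliceosomal snRNP except U6. All 7 genes were tested, 4 had a negative log2 ratio, and the role's median was −0.07, or −0.00052 without DKO replicate 1. To compare genes, levels were divided by the length of the principal annotated transcript (CPM per kb). Snrpe was highest, at 489 ± 26.4 CPM per kb in DKO and 480 ± 46.001 in wild-type. Snrpf was lowest, at 18.3 ± 0.824 CPM per kb in DKO and 16.4 ± 2.04 in wild-type. The level of Snrpf is uncertain, because 65.9% of its exon bases overlap Ccdc38 on the opposite strand and how such reads were counted is unknown here. Snrpd1, Snrpb, Snrpg, Snrpd2 and Snrpd3 lay between them in that order.

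Snrpg, which encodes the Sm G subunit, had the highest log2 ratio of all members. Its level was 132, 109, 99.5 and 94.2 CPM in DKO replicates 1 to 4 and 78.5, 88.7, 100.4 and 88.1 CPM in wild-type replicates 1 to 4. The ranges overlapped, with DKO replicate 1 on top and wild-type replicate 3 above DKO replicates 3 and 4. Its log2 ratio was 0.29 ± 0.15 (standard error; edgeR, adjusted p = 0.506), and 0.18 without DKO replicate 1. Of its annotated 85-base windows, the length of a read, 9.15% also occur in a pseudogene. On the other side, Snrpd2 (Sm D2) had a log2 ratio of −0.33 ± 0.18 and Snrpb (Sm B) of −0.27 ± 0.17 (standard errors; edgeR, adjusted p = 0.519 and 0.557). Without DKO replicate 1 they were −0.20 and −0.17.

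Of the proteins specific to the U1 and U2 snRNPs, which bind the 5′ splice site and the branch point, all 4 had negative log2 ratios with a median of −0.12. Snrpc (the C protein of U1) had the highest level per length of all 46 genes, 605 ± 72.5 CPM per kb in DKO and 633 ± 61.7 in wild-type. That rank depends on the length used: per kb of all annotated exons Snrpc had 93.4, and Srsf5 was highest with 180.0 over all pools. Snrpa (the A protein of U1) had the smallest p of the 4. It stood at 224, 325, 328 and 358 CPM in DKO replicates 1 to 4 and 394, 384, 356 and 401 CPM in wild-type replicates 1 to 4. DKO replicate 4 lay just above wild-type replicate 3, and DKO replicate 1 far below the rest. DKO minus wild-type, the log2 ratio was −0.31 ± 0.16 (standard error; edgeR, adjusted p = 0.494), and −0.20 without DKO replicate 1. Of its 85-base windows, 10.3% also occur in other genes, 4 pseudogenes among them. Snrpa1, the U2 protein A′, averaged 364 ± 71.1 CPM in DKO and 409 ± 83.0 CPM in wild-type.

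**Figure D3:**
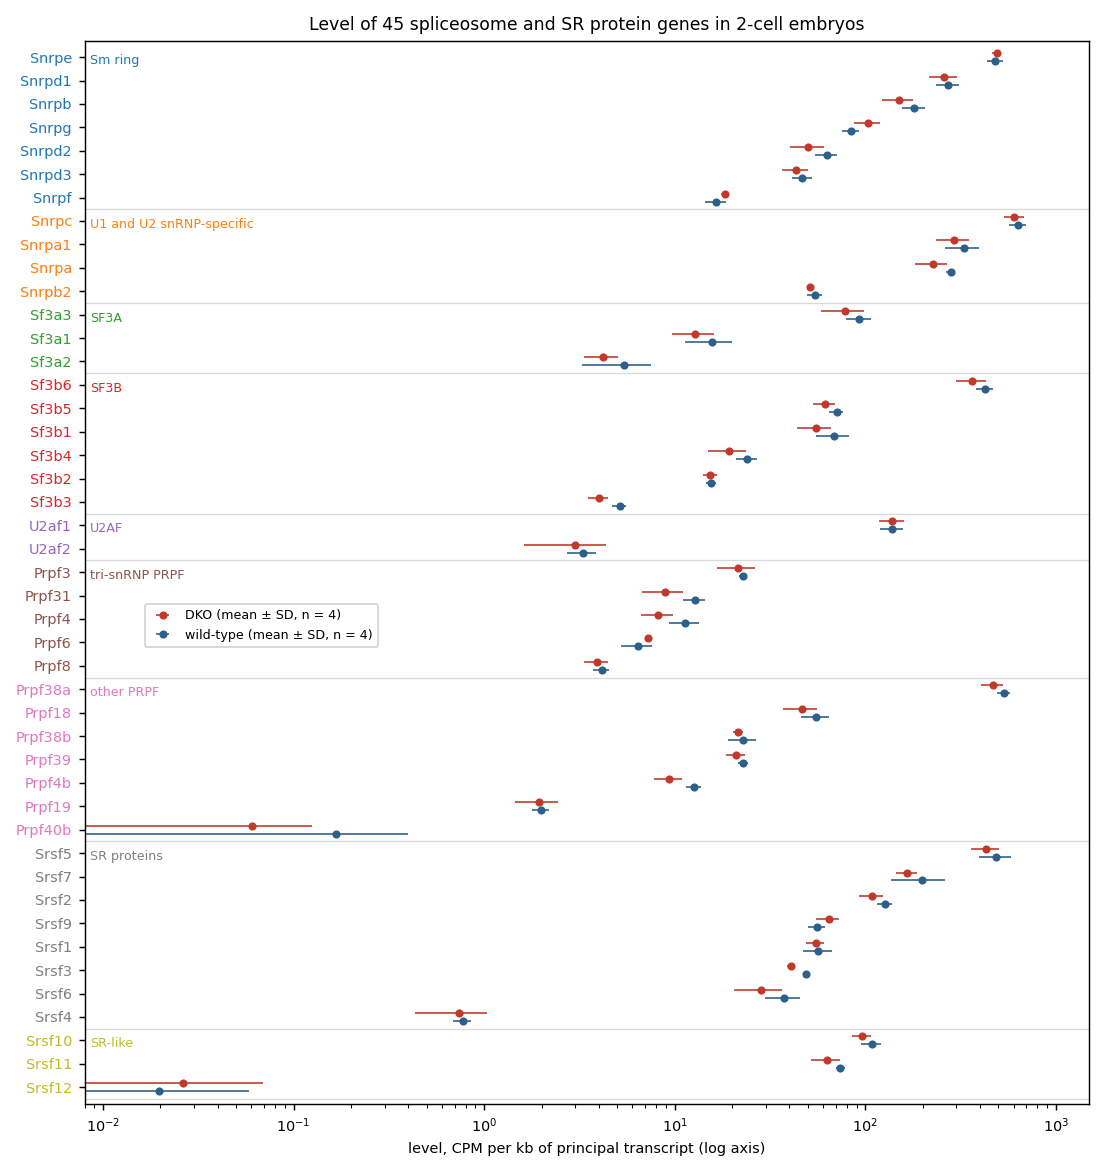
Level of 45 of the 46 genes in CPM per kb of principal transcript (log x axis), grouped by role, with DKO above wild-type in each row; points are means and whiskers SD of 4 pools, and lower whiskers of Prpf40b and Srsf12 run off the axis. Within a role the levels span wide ranges, as from U2af1 at 138 to U2af2 near 3 CPM per kb, while DKO and wild-type points lie close together.

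SF3A and SF3B are protein complexes of the U2 snRNP that hold it at the branch point. All 9 of their genes had negative log2 ratios, with medians of −0.28 for the 3 SF3A and −0.27 for the 6 SF3B genes; without DKO replicate 1 these were −0.17 and −0.15. In edgeR with no library left out, none of the 9 had an unadjusted p under 0.05. Sf3b3 came closest, at 20.8, 15.9, 17.3 and 18.1 CPM in DKO replicates 1 to 4 and 24.1, 24.9, 20.4 and 23.6 CPM in wild-type replicates 1 to 4. There, DKO replicate 1 was the highest DKO pool and the single one above a wild-type pool. Its unadjusted p was 0.0605 in edgeR, 0.0324 in DESeq2 and 0.0172 in limma-voom. Without DKO replicate 1 the edgeR value was 0.0233. The log2 ratio was −0.37 ± 0.18 (standard error; edgeR, adjusted p = 0.489), and −0.45 without DKO replicate 1. Sf3b1, the large scaffold that contacts the branch point, averaged 340 ± 68.9 CPM in DKO and 426 ± 82.5 CPM in wild-type, a log2 ratio of −0.33 that shrank to −0.21 without DKO replicate 1, and to −0.20 when wild-type replicate 4 was left out.

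Levels within these complexes differed widely. Per length, Sf3b6, which sits beside the branch point adenosine, stood at 365 ± 67.2 CPM per kb in DKO and 424 ± 43.2 in wild-type, and Sf3b3 at 3.98 ± 0.458 in DKO and 5.14 ± 0.437 in wild-type. In SF3A, Sf3a3 was highest with 78.5 ± 19.8 CPM per kb in DKO and 93.2 ± 14.3 in wild-type, and Sf3a2 lowest with 4.20 ± 0.853 in DKO and 5.38 ± 2.11 in wild-type. Sf3a1 averaged 63.2 ± 15.5 CPM in DKO and 77.0 ± 21.1 CPM in wild-type.

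Sf3a2 lies 0.125 Mb from Gadd45b on chromosome 10 (distance on GRCm38), the nearest member to a targeted locus. It was at 6.84, 10.5, 8.80 and 11.0 CPM in DKO replicates 1 to 4 and 7.12, 17.7, 9.39 and 13.5 CPM in wild-type replicates 1 to 4. Of its exon bases, 16.1% overlap Plekhj1 on the opposite strand. The ranges overlapped, and the log2 ratio was −0.36 ± 0.29 (standard error; edgeR, adjusted p = 0.642). Snrpd3 at 5.39 Mb and Snrpf at 12.7 Mb from Gadd45b had log2 ratios of −0.11 (−0.06 without DKO replicate 1) and 0.16. Snrpg is 19.3 Mb from Gadd45a on chromosome 6.

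U2AF is a heterodimer in which U2AF2 binds the polypyrimidine tract and U2AF1 the AG at the 3′ splice site. The transcripts of its subunits stood far apart. U2af1 was at 127, 160, 125 and 167 CPM in DKO replicates 1 to 4 and 125, 133, 157 and 165 CPM in wild-type replicates 1 to 4. Both genotypes averaged 145 CPM, and the 95% interval of the log2 ratio ran from −0.34 to 0.34. Of the 85-base windows of U2af1, 17.8% also occur in 3 pseudogenes. U2af2 was at 3.80, 6.41, 4.60 and 10.2 CPM in DKO replicates 1 to 4 and 7.64, 8.09, 6.17 and 5.63 CPM in wild-type replicates 1 to 4. Its DKO pools spread 2.69-fold, and the log2 ratio was −0.14 ± 0.31 (standard error; edgeR, adjusted p = 0.885), and 0.04 without DKO replicate 1 or −0.48 without DKO replicate 4. Per length U2af1 was at 138 ± 21.1 CPM per kb in DKO and 138 ± 18.4 in wild-type, and U2af2 at 3.00 ± 1.37 in DKO and 3.30 ± 0.560 in wild-type.

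The PRPF genes hold the 3 members with an unadjusted p under 0.05 in edgeR. Of the 5 genes for proteins of the U4/U6.U5 tri-snRNP, which brings in the catalytic RNAs, 4 were negative with a median of −0.09, which was −0.03 without DKO replicate 1. Prpf31, which binds the U4 snRNA and links it to U5, stood at 18.3, 28.2, 32.0 and 33.1 CPM in DKO replicates 1 to 4 and 41.1, 46.5, 33.8 and 38.4 CPM in wild-type replicates 1 to 4. Every DKO pool was below every wild-type pool, though DKO replicate 4 and wild-type replicate 3 nearly met. Its log2 ratio was −0.52 ± 0.20 (standard error), a level 1.43-fold lower in DKO, with an edgeR adjusted p of 0.469. Over 16 alternative settings that adjusted p ran from 0.276 to 0.856, and without DKO replicate 1 the log2 ratio was −0.37. A non-coding transcript, Gm15927, overlaps 18.1% of the exon bases of Prpf31 on the opposite strand.

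Prpf4, a partner of Prpf3 in the same particle, was at 31.6, 46.5, 50.1 and 43.2 CPM in DKO replicates 1 to 4 and 62.9, 58.5, 45.6 and 70.5 CPM in wild-type replicates 1 to 4. Wild-type replicate 3 lay within the DKO range and the other wild-type pools above it. DKO minus wild-type, the log2 ratio was −0.47 ± 0.19 (standard error; edgeR, adjusted p = 0.469). The tri-snRNP partner Prpf3 itself, the highest of the 5 per length, averaged 63.1 ± 14.3 CPM in DKO and 67.0 ± 2.82 CPM in wild-type. Prpf6 was the member of the group with a positive log2 ratio, 0.17 ± 0.19 (standard error; edgeR, adjusted p = 0.745), which was 0.07 without wild-type replicate 1 and 0.28 without wild-type replicate 2. Prpf8, the protein at the heart of the catalytic centre, was among the lowest of all 46 genes per length, at 3.90 ± 0.565 CPM per kb in DKO and 4.14 ± 0.395 in wild-type.

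Prpf4b, a kinase that phosphorylates spliceosome proteins, was at 55.3, 79.9, 81.6 and 77.0 CPM in DKO replicates 1 to 4 and 105, 107, 88.8 and 94.4 CPM in wild-type replicates 1 to 4. The groups did not overlap. The log2 ratio was −0.43 ± 0.16 (standard error), a level 1.35-fold lower in DKO, with an edgeR adjusted p of 0.469 and a range of 0.276 to 0.835 over 16 alternatives. Among the other PRPF genes all 7 tested were negative, with a median of −0.13. Prpf38a, a factor of spliceosome activation, was the highest of them, at 709 ± 96.2 CPM in DKO and 808 ± 62.6 CPM in wild-type. Prpf18, a factor of the second catalytic step, averaged 163 ± 32.8 CPM in DKO and 195 ± 33.2 CPM in wild-type. Prpf19, the ubiquitin ligase of the complex named after it, was at only 4.15 ± 1.04 CPM in DKO and 4.24 ± 0.410 CPM in wild-type. Prpf40b, one of the genes too low to test, had 11, 5, 0 and 2 counts in DKO replicates 1 to 4 and 0, 13, 0 and 36 in wild-type replicates 1 to 4.

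**Figure D4:**
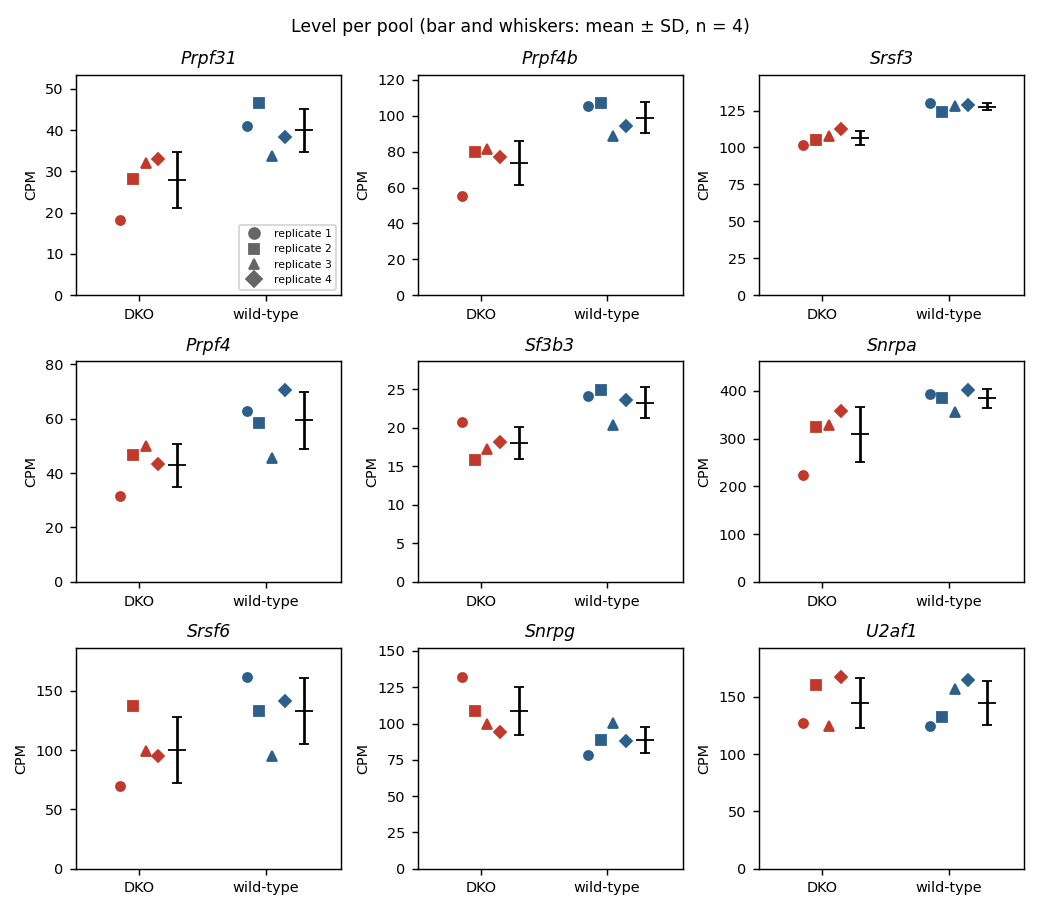
Level in CPM (y axis, from 0) of 9 genes in each pool, DKO red on the left and wild-type blue on the right of each panel, with the replicate number as symbol and the mean ± SD of 4 pools beside the points. For Prpf31, Prpf4b and Srsf3 the DKO pools all lie below the wild-type pools; for U2af1 both genotypes average 145 CPM.

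Of the 8 genes for SR proteins, 7 were negative (median −0.20), and none had an unadjusted p under 0.05 in edgeR. Srsf3, the smallest protein of the family, varied little within each genotype. It was at 102, 105, 108 and 112 CPM in DKO replicates 1 to 4 and 130, 124, 128 and 129 CPM in wild-type replicates 1 to 4. The groups did not overlap, and the gap between them was wider than the range of the DKO pools. Its log2 ratio was −0.26 ± 0.13 (standard error), a level 1.20-fold lower in DKO, with an edgeR adjusted p of 0.490 and an unadjusted p of 0.0633. It was −0.24 without DKO replicate 1, and from −0.29 to −0.21 over 16 alternatives. Unadjusted, DESeq2 gave a p of 0.0361 and limma-voom 0.0553, and edgeR without DKO replicate 1 gave 0.0582. Among the 85-base windows of Srsf3, 6.99% also occur in 3 other genes, 2 of them pseudogenes.

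Srsf5 was the highest SR protein gene, at 672 ± 113 CPM in DKO and 763 ± 145 CPM in wild-type. Srsf6 was at 69.8, 137, 99.3 and 95.2 CPM in DKO replicates 1 to 4 and 162, 133, 95.1 and 142 CPM in wild-type replicates 1 to 4. The ranges overlapped widely, with DKO replicate 1 alone below all wild-type pools, and the log2 ratio was −0.40 ± 0.21 (standard error; edgeR, adjusted p = 0.496). Srsf9 was the positive one, with 0.20 ± 0.16 (standard error; edgeR, adjusted p = 0.629), or 0.13 without DKO replicate 4. Srsf4 was at 2.37, 0.747, 1.72 and 1.78 CPM in DKO replicates 1 to 4 and 1.68, 1.52, 1.97 and 1.79 CPM in wild-type replicates 1 to 4, the lowest of the 44 tested genes. Its DKO pools spread 3.17-fold, and 43% of its exon bases overlap a transcript on the opposite strand. Of the SR-like proteins, Srsf10 averaged 360 ± 40.2 CPM in DKO and 406 ± 49.0 CPM in wild-type, and Srsf11 averaged 195 ± 33.3 CPM in DKO and 230 ± 12.8 CPM in wild-type. Srsf12 was nearly silent, with 1, 6, 0 and 0 counts in DKO replicates 1 to 4 and 0, 5, 0 and 0 in wild-type replicates 1 to 4.

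Counted over all roles, 3 of the 44 genes were lower in every DKO pool than in any wild-type pool, Prpf31, Prpf4b and Srsf3, against 2.55% of all genes tested, and 0 were higher in every DKO pool, against 2.79% (5.34% in either direction). Leaving out 1 library at a time, which makes separation easier, gave 3 to 8 genes lower in every DKO pool, with 8 without DKO replicate 2 (5.68% of all genes), 7 without wild-type replicate 3 (6.69%) and 5 without wild-type replicate 1 (4.07%). The same 3 genes were among them each time, which was fixed in advance, as leaving out a library cannot undo a full separation. Genes higher in every DKO pool numbered 0 to 2. They were Srsf9 when DKO replicate 3 was left out (4.84% of all genes) and Prpf6 when wild-type replicate 2 was (4.01%). Without wild-type replicate 3 they were Snrpf and Snrpg (6.64%).

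**Figure D5:**
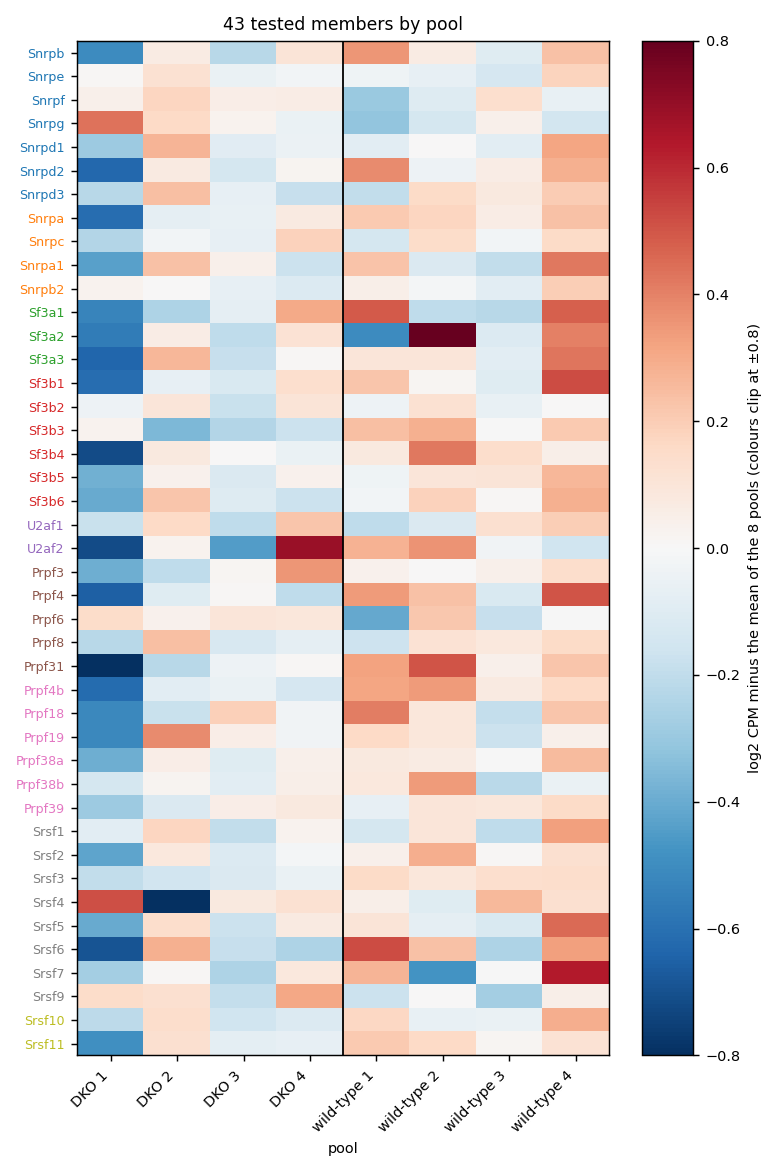
Log2 CPM of 43 of the 44 tested genes (rows, by role) in each pool (columns, DKO left of wild-type) relative to the gene's mean over the 8 pools (colours clip at ±0.8), red for higher and blue for lower. DKO replicate 1 is blue for most genes and the lowest pool for 30 of them, with Snrpg and Srsf4 highest there.

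In the polyA RNA read here, transcript levels of the machinery were high but uneven. Among the tested genes with a known transcript length, the median member stood at 51.9 CPM per kb and the median gene at 4.14 CPM per kb. Snrpc reached the percentile 99.4 and Srsf4 the percentile 20.4. Longer transcripts had lower levels per length among the members (rho of −0.56 by Spearman over the 44 tested genes, and −0.25 over 14415 genes); as length is the divisor this is partly built in, and with CPM alone rho was −0.20 and 0.10. These are correlations across genes of the same 8 libraries, and genes are not independent replicates.

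The promoters of 39 of the 46 genes were in the RefSeq table used here (GRCm38.p6), as 48 windows of 300 bases, from 250 before to 50 after each start. They were rich in CpG, the dinucleotide that DNA methylation acts on: the median window held 24.5 CpG, and 7 over all 32851 promoter windows. The core of the ETS factor motif, CCGGAAG on either strand, was in 21 of the 48 windows (43.8%), against 8.86% of all windows and 18.9% of the 11378 windows with at least 15 CpG. It overlapped a match to the Sp1 motif in 1 of the 48. That Sp1 motif, GGGCGG, was in 62.5% against 35.7% of all windows and 76.8% of the CpG-rich ones. TATAAA was in 8.33% against 13.6% of all windows and 4.61% of the CpG-rich ones, and the NRF1 core GCATGCGC in 4.17% against 2.71% and 6.14%, so that for both the direction depended on the comparison. CCAAT was in 41.7% against 37.4% and 34.9%, and the YY1 core AAGATGGCG in 4.17% against 1.40% and 3.32%. A match is a description of letters and not a bound site.

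The 150 bases before the start are printed, all on the plus strand, for the 3 genes whose pools did not overlap and for Snrpg, the gene with the highest fold change; capitals mark CCGGAAG. Prpf4b and Snrpg hold a match, and Prpf31 and Srsf3 do not in this window. The Srsf3 window holds a TATAAA, which few of the member promoters have.
Prpf31, chr7:3629835-3629984: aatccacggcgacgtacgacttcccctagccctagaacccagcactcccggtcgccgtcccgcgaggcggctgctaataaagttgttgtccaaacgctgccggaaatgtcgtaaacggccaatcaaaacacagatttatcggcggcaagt
Prpf4b, chr13:34875379-34875528: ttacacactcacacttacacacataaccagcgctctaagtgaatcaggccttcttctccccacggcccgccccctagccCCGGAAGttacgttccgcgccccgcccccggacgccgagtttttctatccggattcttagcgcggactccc
Srsf3, chr17:29032510-29032659: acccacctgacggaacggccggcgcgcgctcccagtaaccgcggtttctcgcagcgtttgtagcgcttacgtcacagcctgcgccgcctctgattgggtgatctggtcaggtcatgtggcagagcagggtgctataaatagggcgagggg
Snrpg, chr6:86371390-86371539: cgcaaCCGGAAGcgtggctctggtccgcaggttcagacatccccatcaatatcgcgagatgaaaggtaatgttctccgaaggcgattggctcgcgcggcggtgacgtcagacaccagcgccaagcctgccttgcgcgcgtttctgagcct

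Splicing genes with other symbols were described by 10 lists, of which 157 genes were tested. In edgeR 0 passed the adjusted threshold, the smallest adjusted p being 0.469. Before adjustment 10 were lower and 1 was higher at a p under 0.05, which is 6.37% and 0.637% of the 157, against 4.44% and 5.79% of all genes. A negative log2 ratio was found for 109 of the 157 (median −0.10), against 48.8% of all genes. Without DKO replicate 1 it was found for 107 (median −0.06), against 51.1%. The counts by list below have the same 48.8% beside them, and all lists rest on the same 8 pools. In 8 of the 157 (5.1%) every DKO pool was below every wild-type pool, against 2.55% of all genes. Of 15 genes for the SMN complex and Sm ring assembly, which load Sm proteins onto snRNA, 13 were negative, and Smn1, its name-giving member, averaged 212 ± 28.5 CPM in DKO and 272 ± 18.1 CPM in wild-type without overlap, a log2 ratio of −0.36 ± 0.14 (standard error; edgeR, adjusted p = 0.469). Of 27 genes around the Prp19 complex and the catalytic steps, 20 were negative, and Cdc40, a factor of the second step, stood at 97.4 ± 15.9 CPM in DKO and 129 ± 7.40 CPM in wild-type, with no overlap.

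The U2-associated regulator Rbm5 was at 254 ± 41.7 CPM in DKO and 339 ± 19.7 CPM in wild-type, again without overlap, and Bud13, of the complex for retention and splicing, at 58.7 ± 6.70 CPM in DKO and 75.4 ± 6.90 CPM in wild-type. Scnm1, of the minor spliceosome, was at 117 ± 20.2 CPM in DKO and 161 ± 25.1 CPM in wild-type. The higher one was Wbp4, with 80.1 ± 11.8 CPM in DKO and 59.2 ± 12.04 CPM in wild-type. None of these passed the adjusted threshold. Of the 26 hnRNP genes tested, whose proteins coat new transcripts, 16 were negative with a median of −0.06 and 0 had an unadjusted p under 0.05. Of 10 LSm genes, only some of which encode the ring that holds the U6 snRNA, 7 were negative (median −0.04). The same held for 11 of 20 SR-related proteins and SR kinases (median −0.02) and 12 of 18 further snRNP proteins (median −0.10). Of 5 core genes of the exon junction complex 3 were negative (median −0.15). In these 4 lists too, 0 genes had an unadjusted p under 0.05. The remaining lists held 12 of 15 early U2-associated factors, 8 of 11 B complex and retention factors and 7 of 10 minor spliceosome genes with a negative ratio (medians −0.09, −0.14 and −0.09).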

How the data were processed

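RNA-seq counts per gene were taken from 8 libraries, 4 DKO and 4 wild-type, grouped by title. The deposited values are whole-number counts, not normalized. STAR 2.5.2b, featureCounts 1.5.1 and the builds NCBIM37 and mm9 are named per the submitters' processing notes; settings for strand and multiply mapped reads were not stated. Per the labels' protocols cDNA and library were each amplified in 11 PCR cycles, with no molecular identifiers described, so reads are not independent molecules. Of 37310 identifiers 32620 matched a symbol. Lengths, overlaps and shared 85-base windows came from GENCODE M21 (GRCm38), newer than the build counted on.

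Genes passing filterByExpr were tested with edgeR 4.0.16 after TMM scaling (robust quasi-likelihood, R 4.3.3), adjusted by Benjamini-Hochberg over 14970 genes. Alternatives were DESeq2 1.42.0, limma-voom (limma 3.58.1), other scalings and filters, the replicate number as block, pool size (log2 embryos) as covariate, and each library left out. Libraries of 1 genotype differed by more than sampling noise (chi-square over degrees of freedom at least 24.0). The scripts were tested on simulated data.

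The members and lists were chosen with earlier results of these data known. Genes were named if adjusted p passed, if pools did not overlap, if highest per length or with the smallest p in their role (2 lower, 1 higher), if among the 5 with the widest DKO spread, or if too low to test; of other lists, the smallest p under 0.05 in each direction. Sf3a2, Snrpd1, Snrpd3, Snrpf and Prpf8, and the marker genes, were named outside that rule, after values were seen. Values of 1 gene are not reported here, though it is in the counts, sums and medians. Levels per length used the exons of the principal transcript. The labels give 1 litter per pool. The p-values weigh the difference between genotypes against the spread between these pools, estimated partly from other genes.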

Additional observations from a re-analysis of the deposited data

Results flagged for a closer look

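In a check for a pool far from the other 3 of its genotype (Dixon's test), applied to the 31 named genes in both genotypes, only Srsf12 stood out, once in each. DKO replicate 2 was at 0.264 CPM where the other DKO pools had 0 to 0.0447 CPM, and wild-type replicate 2 was at 0.230 CPM where the other wild-type pools had 0 CPM. Chance flags about 1 in 20 groups, and these values rest on 6 and 5 counts.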

How the results depend on the processing

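In none of the 16 alternative settings did a spliceosome or SR protein gene pass an adjusted p of 0.05, and in edgeR 0 passed at 0.1. Over all genes, edgeR called 4, DESeq2 47, edgeR with no filter on low counts 7 and with a mean of at least 10 CPM 1. Members lower at an unadjusted p under 0.05 numbered 3 in edgeR, 4 by limma-voom and 4 in edgeR with no filter on low counts. They numbered 5 by DESeq2 and 6 with embryos per pool as a covariate. Members higher numbered 0, and 1 with library size alone and 1 with that covariate. The cause was not tested. With 1 library left out the lower count ran from 2 to 6 (6 without DKO replicate 2, 5 without DKO replicate 4, 5 when wild-type replicate 3 was left out). The share of all genes at that p is not given here for the alternatives, so these counts cannot be set against it. Members lower in every DKO pool then numbered 3 to 8, against 3.25% to 6.69% of all genes, and could not number fewer than 3. The leave-out count of separated genes and the length of all annotated exons were alternatives chosen after seeing the data. With that length 8 of 9 roles kept their highest gene; Snrpa1 took the place of Snrpc, and Srsf5 was the highest gene of all. With the replicate block the median of the members was −0.19 and 39 were negative, with 0 called. Deviations of same-numbered libraries correlated at 0.00235 to 0.0780, and the labels do not say whether these libraries shared more than a number. Of 461 alternative log2 ratios of 29 named genes, 16 changed sign, in 6 genes. Snrpe ran from −0.020 (wild-type replicate 3 left out) to 0.089, with −0.01 when DKO replicate 2 was left out. Prpf3 ran from −0.24 to 0.012, U2af2 from −0.48 to 0.036 (both highest with DKO replicate 1 left out), Srsf4 from −0.30 to 0.17 and U2af1 from −0.077 to 0.067 over the libraries left out. U2af1 was 0.021 by limma-voom, 0.051 with library size alone and 0.033 at 10 CPM. Prpf19 was 0.027 by limma-voom, 0.021 with library size alone, and −0.19 to 0.11 with a library left out.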
